A study of Homo sapiens with 6 samples.

Results

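Siglecs are cell surface receptors of the immunoglobulin superfamily that bind sialic acids, the acidic sugars at the ends of glycoprotein and glycolipid chains. The messenger RNA (mRNA) of 10 human Siglec genes was followed in MV4-11 cells, an established acute myeloid leukemia (AML) cell line with monocytic features, among the 20348 genes of the RNA-seq table. The 10 genes were taken by symbol and were *CD33*, *CD22*, *SIGLEC1*, *SIGLEC5*, *SIGLEC6*, *SIGLEC7*, *SIGLEC9*, *SIGLEC10*, *SIGLEC12* and *SIGLEC14*. The comparison was between 3 Control samples, untreated MV4-11 cells (a blank control), and 3 samples of the same line given 1 μM WNK463 for 48 h, an inhibitor of the WNK family of kinases. All samples come from 1 cell line at 1 dose and 1 time, and the labels do not say whether replicates were separate cultures, so the spread between them may be technical. The family was chosen by its values in this same comparison of counts, in which *SIGLEC6* was already known to be among the higher genes with the smallest p. The values of the 10 genes are therefore given as a description, with no p, and how many of them passed a threshold is given only as a count beside that over all genes.

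Most Siglecs of myeloid cells carry immunoreceptor tyrosine-based inhibitory motifs (ITIMs) in the cytoplasmic tail. Src family kinases phosphorylate these motifs, and the phosphatases SHP-1 and SHP-2, encoded by *PTPN6* and *PTPN11*, then bind and dampen activating signals. SIGLEC14 lacks such a motif and signals through the activating adaptor DAP12, encoded by *TYROBP*, and SIGLEC1 (sialoadhesin) serves mainly in adhesion of macrophages. CD33 is a surface antigen of most AML blasts and the target of antibody therapy, CD22 is known from B cells, and SIGLEC6 from placental trophoblast, mast cells and some B cells.

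The 6 samples held 14915745 to 17411780 counts each, and the common dispersion of the fit across all genes corresponded to a variation of 5.21% between replicates. No pair of replicates agreed to within counting error (chi-square over its degrees of freedom 2.64 to 7.13), so each sample was counted separately. Of the 11 markers of monocytic AML, 10 passed the filter on low counts. By adjusted p alone, 6 were higher with WNK463 (*CD4*, *CEBPA*, *CSF1R*, *HOXA9*, *ITGAM* and *MEIS1*) and 3 were lower (*FLT3*, *HOXA10* and *LYZ*). *SPI1*, which encodes the myeloid factor PU.1, did not pass, with a log2 fold change of 0.0020 (standard error 0.05). The sum and range below cover all 11 markers. Their summed level was 2779 to 2848 CPM (counts per 1e+06 after TMM scaling) in Control and 2010 to 2078 CPM with WNK463. Without *LYZ* (lysozyme), which had a log2 fold change of -2.22, the sum was 1443 to 1474 and 1728 to 1774 CPM. The part of these markers in the results below was not tested. *FLT3*, the kinase receptor mutated in this line, was measured at 369 ± 18.5 CPM in Control and 320 ± 3.56 CPM with the inhibitor (SD, n = 3). *CD14*, a defining monocyte marker, had at most 10 counts in any sample. In these bulk samples, fewer cells that carry an mRNA and less of that mRNA per cell cannot be told apart.

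In the genome build GRCh38, 8 of the 10 genes lie between positions 51124908 and 51646889 of chromosome 19 as annotated by GENCODE 29. *CD33* lies there from 51225064 to 51243860 on the plus strand and *SIGLEC6* from 51519525 to 51531856 on the minus strand. *CD22* lies apart on the same chromosome, from 35319261 to 35347355, and *SIGLEC1* lies on chromosome 20 from 3686970 to 3707128. The deposited row with the symbol *SIGLEC5* carries the identifier ENSG00000268500. GENCODE 29 gives that identifier the name AC018755.2 and places it from 51612091 to 51646889, over the *SIGLEC14* gene (51642553 to 51646801) on the same strand. The first exons of both its annotated transcripts overlap the first exon of *SIGLEC14*, and one of them shares 2 exons and 462 of its 1837 exonic bases with *SIGLEC14*. Over all annotated transcripts, 32.0% of the distinct 100-base windows of the *SIGLEC5* row also occurred in *SIGLEC14*. Between the remaining members no 100-base window was shared, although *SIGLEC10* had 0.578% of its windows in common with *SIGLEC11*. How the counting divided reads between *SIGLEC5* and *SIGLEC14* is not given in the sources used here, so the split between these rows is uncertain.

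The promoters of the members bear on how alike these neighbours are. RefSeq (GRCh38.p14) gave an entry for 9 of the 10 members, all but *SIGLEC1*, and the 250 bases before each start were searched on both strands for 6 short motifs. The windows of *SIGLEC6* (chr19:51531671-51531920, minus strand) and *CD33* (chr19:51224830-51225079, plus strand) are shown because these genes moved in opposite directions. Capitals mark matches to GAGGAA, the core bound by the myeloid factor PU.1, which reads TTCCTC on the other strand.

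SIGLEC6: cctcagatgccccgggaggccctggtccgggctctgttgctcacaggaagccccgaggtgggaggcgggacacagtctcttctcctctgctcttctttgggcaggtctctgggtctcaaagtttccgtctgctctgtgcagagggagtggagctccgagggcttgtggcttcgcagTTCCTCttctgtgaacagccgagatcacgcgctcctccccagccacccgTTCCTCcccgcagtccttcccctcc

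CD33: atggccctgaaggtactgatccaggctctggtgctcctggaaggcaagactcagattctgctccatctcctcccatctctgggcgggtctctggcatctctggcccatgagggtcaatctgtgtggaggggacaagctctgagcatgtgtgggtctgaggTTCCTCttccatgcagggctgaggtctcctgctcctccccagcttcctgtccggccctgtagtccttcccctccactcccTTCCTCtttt

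Each window held 2 matches, which began 74 and 25 bases before the start in *SIGLEC6* and 90 and 10 bases before it in *CD33*. The windows were identical at 163 bases, 59.7% of aligned columns. The core occurred in 6 of the 11 windows of members, beside 23.6% of 35116 windows of the same length over all genes. The 6 windows belonged to 5 members (*CD33*, *SIGLEC6*, *SIGLEC7*, *SIGLEC9* and *SIGLEC12*), and *SIGLEC12* also had a window without a match. The windows of *SIGLEC9* overlap each other, and one was identical to a *SIGLEC12* window at 83.1% of aligned columns, so these matches are not separate. The starts are those of RefSeq, and several windows reach into the gene spans of GENCODE 29. In *SIGLEC6* (span to 51531856) and *SIGLEC7* (span from 51142299, window 51142209 to 51142458) every match lay inside the span. So did the *CD33* match that began 10 bases before the start, and the whole *CD22* window. Such matches may lie in transcribed sequence. A match to these letters is a description and does not show that a factor binds there.

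The windows of *SIGLEC5* (chr19:51630402-51630651) and *SIGLEC14* (chr19:51646826-51647075), both on the minus strand, are shown because they were the most alike of any pair of members, with 215 identical bases or 84.6% of aligned columns. Capitals mark the E-box CACGTG, which 6.34% of all windows held.

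SIGLEC5: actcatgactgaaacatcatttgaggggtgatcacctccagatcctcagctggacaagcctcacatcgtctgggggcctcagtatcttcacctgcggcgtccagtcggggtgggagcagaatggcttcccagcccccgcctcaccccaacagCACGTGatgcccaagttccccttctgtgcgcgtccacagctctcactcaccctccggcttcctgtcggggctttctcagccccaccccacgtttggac

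SIGLEC14: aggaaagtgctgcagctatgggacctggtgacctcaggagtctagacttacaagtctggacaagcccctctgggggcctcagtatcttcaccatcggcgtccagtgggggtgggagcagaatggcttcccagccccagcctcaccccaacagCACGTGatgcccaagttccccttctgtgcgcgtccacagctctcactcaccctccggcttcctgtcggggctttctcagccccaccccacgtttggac

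In both windows the E-box began 98 bases before the start. The start that RefSeq gives *SIGLEC5* lies inside the deposited feature, whose annotated transcripts start near the *SIGLEC14* window. None of the 11 windows of members held the RUNX core TGTGGT, the C/EBP core TTGCNNAA, the AP-1 site TGAGTCA or the cyclic AMP response element TGACGTCA, which occurred in 11.0%, 9.05%, 4.20% and 1.65% of all windows.

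To compare levels between genes, the TPM values (transcripts per 1e+06, which account for transcript length) were ordered within each group. *CD33* was the highest Siglec in Control, at 123 ± 8.01 TPM (SD, n = 3), and made up 51.1% ± 1.28 of the summed TPM of the 10 genes. *SIGLEC12* came next at 55.3 ± 1.15 TPM. *SIGLEC7* and *SIGLEC5* followed at 17.4 ± 1.55 and 16.9 ± 1.11 TPM, and their sample ranges overlapped, so their order was not resolved. Below them stood *SIGLEC6* at 11.8 ± 0.967, *SIGLEC14* at 7.27 ± 0.677, *SIGLEC10* at 5.15 ± 0.461, *SIGLEC9* at 2.26 ± 0.273, *SIGLEC1* at 1.12 ± 0.0526 and *CD22* at 0.116 ± 0.104 TPM. The sample ranges of all neighbours in this order other than *SIGLEC7* and *SIGLEC5* were apart.

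**Figure D1:**
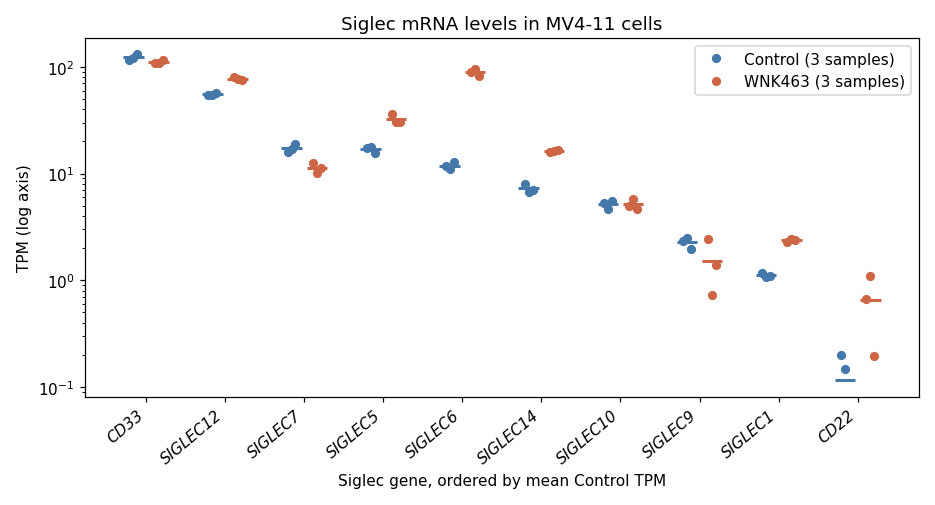
TPM on a log axis of each Siglec gene in every sample, with Control in blue, WNK463 in orange and short lines at the group means. *SIGLEC6* moved from the fifth to the second place, and a Control sample in which *CD22* was listed at 0 cannot be drawn on this axis but counts in its mean.

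With WNK463 the order changed. *CD33* remained the highest at 111 ± 3.76 TPM, but *SIGLEC6* now stood second at 88.8 ± 6.34 TPM, above *SIGLEC12* at 77.1 ± 2.16 (SD, n = 3 each). The share of *CD33* in the summed TPM was 32.0% ± 1.63, and that of *SIGLEC6* was 25.7% ± 1.56, against 4.92% ± 0.273 in Control. The summed TPM of the 10 genes was 240 ± 9.87 in Control and 346 ± 5.77 with WNK463. *SIGLEC7* moved below *SIGLEC14*, and at the low end the sample ranges of *SIGLEC1*, *SIGLEC9* and *CD22* could not be fully ordered, since *SIGLEC9* overlapped with both.

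**Figure D2:**
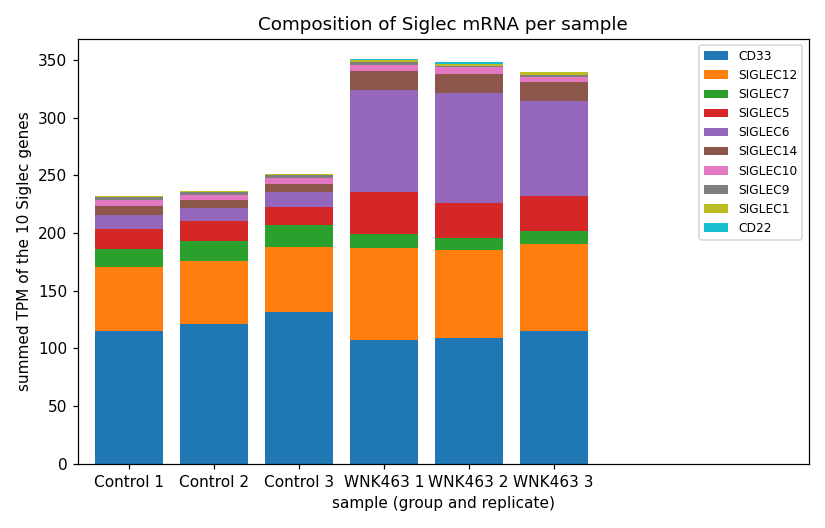
Summed TPM of the 10 Siglec genes in each of the 6 samples, stacked by gene from 0. The bars reach 232 to 251 TPM in Control and 340 to 351 with WNK463, and the *SIGLEC6* segment accounts for most of the gap.

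Differences between the groups were measured on the counts with edgeR's quasi-likelihood test over 11973 genes. A gene was called at an adjusted p below 0.05 and a change of at least 2-fold, and 1 of the 9 members tested was called higher and 0 lower, beside 9.62% and 5.55% of all tested genes. By adjusted p alone, 5 members were higher and 2 lower, beside 35.5% and 35.3% of all genes (70.8% in either direction). The median log2 fold change of the 9 members was 0.30, with a range from -0.89 to 2.75, and that of all tested genes was 0.02. The groups did not overlap in 7 of the 9 members, against 73.5% of all tested genes, with WNK463 higher in 5 members and 37.1% of genes and lower in 2 members and 36.4%. Since this comparison was used to choose the members, nothing is read from these counts. With library totals instead of TMM, the median over all genes was 0.17 and 76.0% of the called genes were higher, against 63.4% with TMM, and changes below are relative to the TMM scale.

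**Figure D3:**
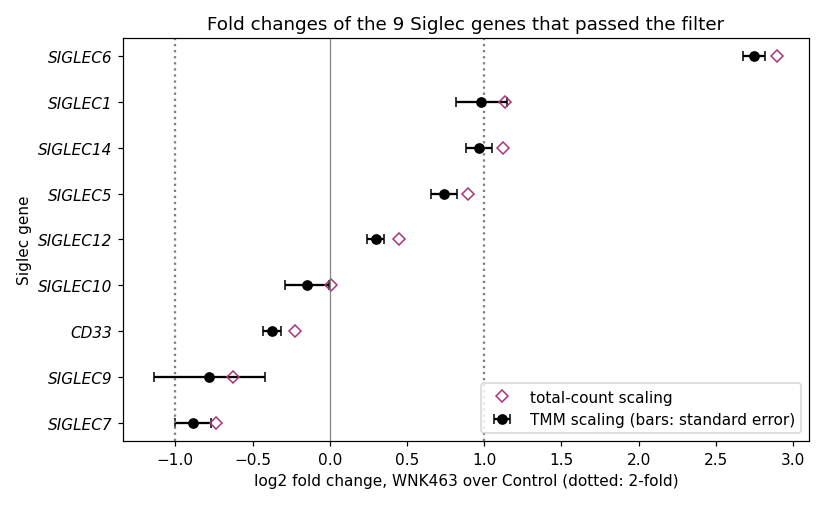
Log2 fold change of WNK463 over Control for the 9 Siglec genes that passed the filter, with black points and standard error bars for TMM scaling and open diamonds for total-count scaling. *SIGLEC6* stands at 2.75, while the other members lie between -0.89 and 0.98.

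Among the ITIM-bearing receptors of the *CD33* cluster, *SIGLEC6* had the largest difference. Its counts were 302, 252 and 322 in Control and 2009, 2266 and 1853 with WNK463. The groups were far apart, and the lowest WNK463 count was several times the highest Control count. The level was 18.4 ± 1.18 CPM in Control and 124 ± 7.05 CPM after WNK463 (SD, n = 3), a 6.71-fold difference. The log2 fold change was 2.75 (standard error 0.07), and it lay between 2.69 and 2.91 under every alternative scaling, filter, unit and left-out sample that was run. Since SIGLEC6 is known from mast cells and trophoblast, markers of these cells were read beside it. The summed level of 5 mast cell and basophil markers was 1.28 to 2.61 CPM in Control and 8.04 to 9.59 with WNK463. *TPSB2* (a mast cell tryptase) and *MS4A2* (the beta chain of the high-affinity IgE receptor) were called higher, with log2 fold changes of 2.71 and 1.85, while *CPA3* and *TPSAB1* were at 0 counts in all samples and *HDC* had 3 counts or fewer. *TPSB2* and *TPSAB1* are near-identical copies, so the split of reads between them is uncertain, as it is within the *CGB* and *PSG* families below. Of 6 trophoblast markers, 4 (*CGA*, *CGB3*, *PSG1* and *PSG3*) were at 0 counts in all samples, and the sum was 0.137 to 0.609 CPM in Control and 0.664 to 1.22 with WNK463, with *ERVW-1* at a log2 fold change of 1.66. *ERVW-1* was called higher, but not without Control replicate 2 or 3 or WNK463 replicate 2 (1.35, 1.28 and 1.49), and was at 2.80 without Control replicate 1. *TPSB2* and *ERVW-1* passed the filter only through their WNK463 samples, so their calls are not read as support. The part of such cells in the *SIGLEC6* result was not tested.

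*CD33* moved the other way, and by much less. Its counts were 1335, 1221 and 1466 in Control and 1057, 1102 and 1067 with WNK463. The groups did not overlap in counts. The level was 84.8 ± 4.16 CPM in Control and 65.3 ± 2.41 with WNK463, and the log2 fold change was -0.38 (standard error 0.06). The size depended on the scale, with a log2 fold change of -0.23 by total counts and -0.15 on log2(TPM + 1), while the direction was the same in each. In TPM the groups were apart by a narrow margin, with the lowest Control value at 116 and the highest WNK463 value at 115.

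*SIGLEC7*, an inhibitory receptor known from natural killer cells and monocytes, was the member with the lowest fold change. Counts were 241, 199 and 227 in Control and 134, 117 and 124 with WNK463, so the groups did not overlap. The level was 14.1 ± 0.544 CPM in Control and 7.60 ± 0.700 with WNK463, a log2 fold change of -0.89 (standard error 0.12). For *SIGLEC7* too the size depended on the scale. The value was -0.74 by total counts, -0.59 with limma on log2(TPM + 1) and -0.63 on log2(TPM + 0.1). Its close relative *SIGLEC9*, found on monocytes and neutrophils, had counts of 35, 34 and 30 in Control and 32, 10 and 18 with WNK463. Here the groups overlapped, since the first WNK463 sample reached the Control values. The log2 fold change was -0.78 (standard error 0.36), and without WNK463 replicate 1 it was -1.28, past the 2-fold limit. *SIGLEC9* would not have passed the filter on its WNK463 samples alone, so nothing is read from these values. Of the NK and T cell markers, *NCAM1* had 15, 15 and 21 counts in Control and 9, 6 and 6 with WNK463, a log2 fold change of -1.32. It passed the filter only through Control, and limma on TPM gave -0.10 and -0.28 and did not call it. These markers were near the detection limit, with 5 of 6 at 3 counts or fewer and a summed level of 0.913 to 1.52 CPM in Control and 0.407 to 0.664 with WNK463.

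*SIGLEC12*, whose product in humans is thought to have lost sialic acid binding, was abundant and moved little. Counts were 1073, 926 and 1064 in Control and 1369, 1343 and 1212 with WNK463. The level was 64.6 ± 0.948 CPM and 79.4 ± 2.88 CPM, a log2 fold change of 0.30 (standard error 0.06). *SIGLEC10*, an inhibitory receptor that binds CD24 and CD52, had 136, 98 and 132 counts in Control and 113, 129 and 102 with WNK463. The groups overlapped, and the log2 fold change of -0.15 (standard error 0.14) took the opposite sign under total-count and TPM scaling, at 0.0049 and 0.0037.

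The paired receptors *SIGLEC5* and *SIGLEC14*, the first inhibitory and the second activating, were both higher with WNK463. *SIGLEC5* had 461, 416 and 412 counts in Control and 841, 733 and 675 with WNK463. *SIGLEC14* had 370, 271 and 316 counts in Control and 642, 677 and 628 with WNK463. Neither gene overlapped between the groups. The log2 fold changes were 0.74 (standard error 0.08) and 0.97 (standard error 0.08). When both rows were added into one feature, because their reads cannot be told apart with certainty, the level was 47.4 ± 3.11 CPM in Control and 84.9 ± 4.08 CPM after WNK463 (SD, n = 3) and the log2 fold change was 0.84 (standard error 0.06). The adaptor gene *TYROBP*, named after its values were seen, was at 60.3 ± 1.86 CPM in Control and 99.9 ± 1.49 with WNK463. Its log2 fold change was 0.73 (standard error 0.05).

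Outside the cluster, *SIGLEC1* was low but higher with WNK463. It had 65, 50 and 60 counts in Control and 116, 123 and 121 with WNK463, without overlap. The level was 3.68 ± 0.265 and 7.29 ± 0.380 CPM, a log2 fold change of 0.98 (standard error 0.16). *SIGLEC1* and *SIGLEC14* lay just under the 2-fold limit, and *SIGLEC6* was the next member above it. Both passed it with total counts, at 1.13 and 1.12, and without Control replicate 1, at 1.03 and 1.05. *SIGLEC1* also passed it without WNK463 replicate 1, at 1.01. In TPM, *SIGLEC1* and *SIGLEC14* had 0.67 and 1.07 with limma on log2(TPM + 1) and 1.01 and 1.16 on log2(TPM + 0.1). The ratio of mean TPM gave 1.08 and 1.16. As *SIGLEC1* marks macrophages, 6 other macrophage markers were read beside it. *CD163*, *MRC1* and *TIMD4* had 3 counts or fewer in every sample, *FOLR2* was called higher at a log2 fold change of 1.48, *MARCO* had -0.27 (standard error 0.35) and did not pass, and the sum was 2.07 to 3.29 CPM in Control and 3.68 to 5.49 with WNK463. Whether macrophage-like cells had a part in the *SIGLEC1* result was not tested.

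*CD22* did not pass the filter. It had 4, 3 and 0 counts in Control and 6, 8 and 4 with WNK463, and the highest Control count equalled the lowest WNK463 count. A change in *CD22* was not detectable at this depth, where 3 counts correspond to between 0.174 and 0.206 CPM. Of 5 B cell markers, *PAX5* was tested, with a log2 fold change of 0.95 that passed the adjusted p but not the fold limit, *MS4A1* was at 0 counts in all samples, and the sum was 1.65 to 2.37 CPM in Control and 2.72 to 3.26 with WNK463.

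The Siglec genes that are not among the 10 had few counts. *SIGLEC8*, known from eosinophils and mast cells, had 5, 4 and 1 counts in Control and 17, 18 and 11 with WNK463, and *SIGLEC15* had 2, 6 and 5 counts and 11, 12 and 15. The groups did not overlap, and the log2 fold changes were 2.10 and 1.46. Both genes passed the filter only through their WNK463 samples and so had to differ, and nothing is read from their calls. *SIGLEC15* was not called with DESeq2, without Control replicate 1 (1.09) or without WNK463 replicate 3 (1.28). *SIGLEC11* had 24, 6 and 23 counts in Control and 9, 15 and 9 with WNK463 and was not called. *SIGLECL1* had at most 10 counts in any sample, and *MAG* was at 0 in all. The eosinophil markers *CLC* and *PRG3* were at 0 counts in all samples, and the sum of 5 such markers was 3.29 to 4.32 CPM in Control and 6.10 to 6.32 with WNK463. *PRG2* and *CCR3* had log2 fold changes of 0.87 and 0.82, which passed the adjusted p but not the fold limit. *EPX* went the other way, with 9, 4 and 14 counts in Control and 4, 2 and 2 with WNK463, and was not tested.

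The fold changes of the members along chromosome 19 are given as a description, since the family was chosen by these same values. *SIGLEC9*, *SIGLEC7* and *CD33*, on the plus strand at one end of the cluster, had fold changes below 0. *SIGLEC12*, *SIGLEC6*, *SIGLEC5* and *SIGLEC14*, on the minus strand at the other end, had fold changes above 0, with *SIGLEC10* between them. *SIGLEC9* and *SIGLEC10* overlapped between groups, and by adjusted p alone 35.5% of all tested genes were higher and 35.3% lower. Nothing is read from the order of the members. Of the 19 genes in the table within 250 kb of *SIGLEC6*, 11 were tested, and 3 were called higher and 0 lower, beside 9.62% and 5.55% of all tested genes. These were *SIGLEC8*, *VSIG10L* and *FPR1*, and since *SIGLEC8* and *FPR1* passed the filter only through WNK463, nothing is read from the count. *FPR1*, a formyl peptide receptor of phagocytes, was at 0.488 ± 0.0613 CPM in Control and 3.33 ± 0.509 with WNK463 (log2 fold change 2.76, standard error 0.32), whereas its neighbour *FPR2* had a log2 fold change of 0.0041 (standard error 0.21). *VSIG10L* had a log2 fold change of 1.54 (standard error 0.19), and *NKG7* and *ZNF175* had 0.46 each. *ETFB*, a mitochondrial electron carrier gene in the same interval, had -0.0053 (standard error 0.07). The signs of *FPR2* and *ETFB* flipped under other scalings or filters.

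**Figure D4:**
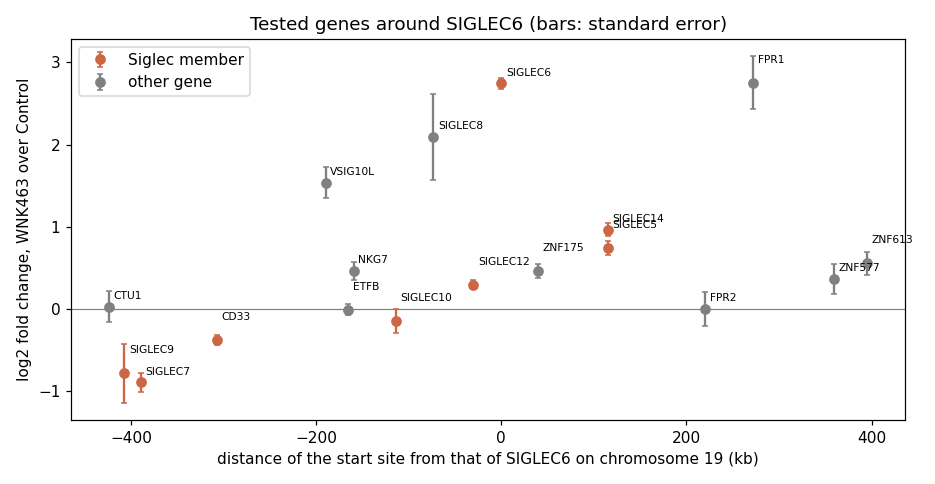
Log2 fold change with its standard error against the distance in kb of each tested gene's start site from that of *SIGLEC6*, with Siglec members in orange and other genes in grey. The 3 members farthest to the left lie below 0, those from *SIGLEC12* onward lie above 0, and other genes in the interval are scattered from about 0 to 2.76.

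The genes whose 6 values were most like those of *SIGLEC6* were found by the distance between log2(CPM + 0.1) values centred on each gene's mean, over 11973 genes. The nearest were *KLHL5*, *CHI3L1*, *C3*, *REEP3* and *DNAAF4*, at distances of 0.226 to 0.296 log2 units over the 6 samples. *C3*, the central complement component, was at 8.28 ± 0.422 CPM in Control and 58.1 ± 2.45 with WNK463, and *CHI3L1*, a secreted chitinase-like protein, at 155 ± 6.13 and 1012 ± 14.1 CPM (SD, n = 3). *DNAAF4* had 2, 1 and 2 counts in Control, so its place rests on few reads. The genes nearest to *CD33* were *PKNOX1*, *HSPA4*, *TBP*, *GATM* and *DAD1*, at distances of 0.0316 to 0.0673, with log2 fold changes between -0.39 and -0.37.

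Genes that act with Siglecs were described from 6 lists written from knowledge of the pathway. These lists were chosen with earlier results of these data known. The adjusted p printed for a listed gene is over all tested genes and is not independent support. Of 61 such genes, 45 were tested, and 9 were called higher and 1 lower, beside 9.62% and 5.55% of all tested genes. By adjusted p alone 26 were higher and 9 lower, beside 35.5% and 35.3%. These shares over all genes also stand behind each list's counts below, which cover few genes and are given as a description. Of the 10 called genes, *CD52* would not have passed the filter on its Control samples alone. The median log2 fold change of the 45 tested pathway genes was 0.28, beside 0.02 over all tested genes.

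Of the 10 tested kinases, phosphatases and other factors that act at ITIMs, 1 was called higher and 0 lower. This was *FGR*, a Src family kinase of myeloid cells, which rose from 27.7 ± 2.90 to 61.5 ± 1.95 CPM (log2 fold change 1.15, adjusted p = 2.5e-10 from edgeR). *PTPN6*, which encodes SHP-1, rose little, from 618 ± 18.6 to 689 ± 19.6 CPM. *INPP5D*, which encodes the lipid phosphatase SHIP1, fell from 487 ± 15.6 to 364 ± 18.8 CPM. Among the 5 activating adaptors and effectors, *HCST* (the adaptor DAP10) was called higher, from 7.28 ± 0.662 to 16.8 ± 0.981 CPM. The kinase gene *SYK*, which acts below DAP12 and was named after its values were seen, fell from 541 to 339 CPM (log2 fold change -0.67, standard error 0.05).

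Of the 5 genes that make or import sialic acid, 3 were higher by adjusted p alone (beside 35.5% of all genes), 1 was lower (beside 35.3%) and 0 were called at 2-fold. *GNE*, which encodes the first enzyme of the pathway, had a log2 fold change of -0.11 (standard error 0.07) and did not pass. *SLC35A1*, the Golgi importer of activated sialic acid, rose from 17.6 ± 1.13 to 28.3 ± 1.86 CPM. Of the 20 sialyltransferases, which attach sialic acid to glycans, 12 were tested, and 2 were called higher and 1 lower. *ST3GAL2* rose from 14.6 ± 1.61 to 35.1 ± 0.928 CPM and *ST8SIA4*, which builds polysialic acid, from 22.9 ± 3.41 to 49.7 ± 2.11 CPM, while *ST3GAL4*, which caps galactose with sialic acid, fell from 48.9 ± 2.15 to 19.4 ± 1.79 CPM. Their log2 fold changes were 1.26, 1.12 and -1.33.

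Among 7 tested genes that remove or handle sialic acid, 2 were called higher and 0 lower. By adjusted p alone 4 were higher (beside 35.5% of all genes) and 1 was lower (beside 35.3%). *SIAE*, which removes O-acetyl groups from sialic acid, rose from 26.4 ± 0.730 to 79.3 ± 4.86 CPM (log2 fold change 1.59, adjusted p = 9.7e-13 from edgeR). *SLC17A5*, the lysosomal sialic acid exporter sialin, rose from 9.04 ± 0.609 to 23.9 ± 0.972 CPM. The sialidase genes *NEU1* and *NEU3* went opposite ways. *NEU1* rose from 41.4 ± 3.39 to 55.4 ± 2.10 CPM (log2 fold change 0.42), and *NEU3* fell from 39.4 ± 5.75 to 24.9 ± 1.27 CPM (log2 fold change -0.66).

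Of 11 genes for known ligands or carriers of ligands, 6 were tested and 3 were called higher. *CD52*, whose product binds SIGLEC10, had 41, 8 and 17 counts in Control and 161, 165 and 159 with WNK463, a log2 fold change of 2.82 that was 3.59 without Control replicate 1 and 2.46 without Control replicate 2. *MUC1*, a mucin bound by several Siglecs, and *PTPRC*, which encodes the CD22 ligand CD45, had log2 fold changes of 1.77 and 1.20. *SPN* (CD43), a ligand of SIGLEC1 and SIGLEC7 and the highest of the list at 519 TPM in Control, fell from 706 ± 32.7 to 539 ± 29.9 CPM. The SIGLEC10 ligand *CD24* was not tested, with a mean of 0 CPM in Control and 0.0388 with WNK463.

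**Figure D5:**
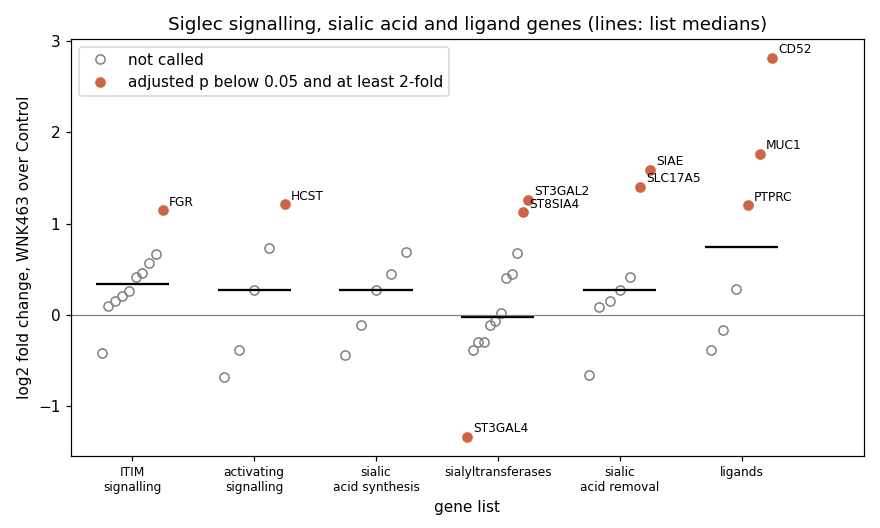
Log2 fold change of each tested gene in the 6 lists, with filled points for the 10 genes called at an adjusted p below 0.05 and at least 2-fold, open points for the rest and black lines at the list medians. The medians lie between -0.02 for sialyltransferases and 0.74 for ligands.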

How the data were processed

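MV4-11 mRNA was enriched with beads and sequenced on an Illumina NovaSeq X Plus. The submitters' processing notes name fastp, Bowtie2, HISAT2, StringTie, RSEM, DESeq2, edgeR and the build GRCh38. The role of each, the annotation release and the strand setting are not given in the sources used here. The deposited table lists 20348 genes, with estimated counts that are whole numbers without normalization and TPM values, which the authors scaled to the same sum in every sample. Because 62 entries pair a count of 0 with a TPM above 0, the counts were taken as rounded estimates. The table also holds the authors' group means, fold changes and p-values, which were not used.

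Counts were analysed with edgeR 4.0.16 in R 4.3.3, using TMM factors, which ranged from 0.944 to 1.06, the default low count filter (filterByExpr, 11973 genes kept), a model of group alone, and Benjamini-Hochberg adjustment over all tested genes. Standard errors were obtained by dividing the absolute log2 fold change by the square root of F. CPM were taken over the TMM library sizes. Group and replicate came from sample titles. Alternatives were DESeq2 1.42.0, 2 other scalings, 2 other filters, limma 3.58.1 on log2(TPM + 1) and log2(TPM + 0.1), the replicate number as a block, and each sample left out in turn. Adding the rows of *SIGLEC5* and *SIGLEC14* and the ratio of mean TPM were chosen after seeing the data. The procedure was tested on simulated counts. Promoter sequences came from RefSeq and gene positions, exons and transcripts from GENCODE 29, matched by identifier.

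The members and all lists were chosen with earlier results of these data known. The genes named are the members, the other Siglecs, up to 3 called genes per direction of each pathway list, the 5 genes nearest to *SIGLEC6* and to *CD33*, tested genes within 250 kb of *SIGLEC6*, and markers. *TYROBP*, *SYK*, *PTPN6*, *INPP5D*, *SPN*, *SLC35A1*, *NEU1*, *NEU3*, *GNE* and *CD24* were added after their values were seen.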

Additional observations from a re-analysis of the deposited data

How the results depend on the processing

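The number of members called higher, 1 with TMM scaling, was 3 with total counts, 2 with limma on log2(TPM + 1), 3 on log2(TPM + 0.1) and 5 without a fold limit, and 2 were then lower. With each sample left out it was 1 to 3 higher and 0 to 1 lower, with 3 higher without Control replicate 1 and 2 higher and 1 lower without WNK463 replicate 1. Pathway genes without a fold limit were 26 higher and 9 lower, and 9 to 10 higher and 1 lower with each sample left out. Over all genes, 740 were higher with at least 10 counts in every sample, and 265 and 416 were lower with limma at pseudocounts of 1 and 0.1. Left-out samples gave 1154 to 1236 higher and 663 to 703 lower.

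*SIGLEC10* reversed with total counts (0.0049), limma on TPM (0.0037 and 0.0041) and the ratio of mean TPM (0.0062). *ETFB* gave 0.15 with total counts, 0.012 with at least 10 counts, 0.16 with both limma fits and -0.051 to 0.023 with left-out samples, and *FPR2* gave -0.011 with no filter and -0.20 to 0.14 with left-out samples. The cause was not tested. There were 729 combinations of 53 results and an alternative. Of these, 695 kept the direction and, where tested, the side of the adjusted p threshold, but 12 of the 695, in 5 genes, crossed the 2-fold limit. A further 6 also kept the direction but were set apart as moved. All 6 were the ratio of mean TPM, which has no p, for *CD33*, *SIGLEC5*, *SIGLEC6*, *SIGLEC7*, *SIGLEC12* and *SIGLEC14*.

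Deviations of equally numbered samples correlated at 0.019, -0.0071 and -0.048, so no shared deviation was seen. These values cannot tell whether equally numbered samples were prepared together, which the labels do not give. With the replicate block 1 member was called higher and 0 lower, 1155 of all genes were higher and 663 lower, *FPR2* had a log2 fold change of -0.0082, and *SIGLEC9* was past an adjusted p of 0.05 at -0.83, as it was with at least 10 counts in every sample (-0.76) and without WNK463 replicate 1 (-1.28). Low counts limit what can be said of *CD22*, *SIGLEC8*, *SIGLEC15* and *SIGLEC9*. The last would not have passed the main filter on its WNK463 samples alone.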

Other observations

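The ratio of count to TPM gives the effective transcript length that the authors' quantification implied, up to a constant per sample, and was set to 100% at each gene's Control mean. It was computed for 8 members, all but *SIGLEC9* and *CD22*. It was 97.6% for *CD33* with WNK463 and 108% for *SIGLEC1*, each without overlap between groups, and shifts at least as large occurred in 43.7% and 18.9% of 10661 genes. For *SIGLEC6* it was 102%, and for *SIGLEC5* and *SIGLEC14* 99.9% each, with overlap between groups.

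GENCODE 29 places a gene on the opposite strand over *SIGLEC6* (AC020914.1), *SIGLEC7* (AC063977.6), *SIGLEC10* (AC008750.1 and AC008750.2) and the *SIGLEC5* row (RPL9P33), and none over *CD33*. The strand setting of the counting is not given in the sources used here, so whether reads from these genes entered the counts of the members is not known. Whole gene spans were compared, and overlap with the exons of the members was not checked.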
